A study of Mus musculus with 15 samples.

Results

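The calcitonin receptor family was followed in RNA-seq of whole mouse pituitary glands through 8 genes. These were the receptor activity-modifying proteins (RAMPs) Ramp1, Ramp2 and Ramp3, the receptors Calcrl and Calcr, and the peptide genes Adm, Calca and Calcb, each taken by its symbol from a table of 55523 rows. Ramp1 was chosen by its measured level, which was lower in PE-/- than in PE+/- males. Its values in every comparison that holds male libraries are therefore given as a description with no test, and it is tested only in females. The other 7 genes entered by family name. The study deleted the pituitary enhancer (PE), which lies in an intron of Nr5a1, by CRISPR/Cas9 genome editing, and Nr5a1 encodes the nuclear receptor NR5A1 of the gonadotropes. The groups were PE+/- males (4 libraries), PE-/- males (4), PE+/- females (4) and PE-/- females (3). PE+/- mice, the controls, lacked the enhancer on one chromosome and PE-/- mice on both, so that every mouse carried at least one deleted copy and no group was wild type. The deletion was in the germline and so in every tissue. The age of the mice whose pituitaries were sequenced is not given in the sources used here, and the design text counts replicates as mice.

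The receptor encoded by Calcrl reaches the cell surface as a complex with a RAMP, and the RAMP sets which peptide it prefers. With RAMP1 it is a receptor for calcitonin gene-related peptide (CGRP), and with RAMP2 or RAMP3 a receptor for adrenomedullin. The calcitonin receptor, encoded by Calcr, binds calcitonin alone and amylin when joined by a RAMP. These receptors signal mainly through the Gs protein, adenylyl cyclase and protein kinase A. In many tissues CGRP is made by sensory nerves and adrenomedullin by endothelial and smooth muscle cells.

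Levels are given as CPM, the deposited counts scaled to a common library size after TMM correction. The libraries held 12982794 to 30238443 counts. About 4 counts stood for 1 fragment, so 12 counts (3 fragments) were taken as the floor of detection. Scaled by library totals without the TMM correction, this floor was 0.397 to 0.924 CPM, depending on the library. Nr5a1 ranged from 34.8 to 80.2 CPM in PE+/- males and from 33.7 to 45.4 in PE+/- females, against 0 to 0.740 in PE-/- males and 0.618 to 0.897 in PE-/- females, as the labels state. Growth hormone, prolactin and proopiomelanocortin transcripts were abundant in all 15 libraries. The posterior lobe gene Oxt (oxytocin) had counts in 4 libraries, PE+/- male replicates 2 and 4 and PE-/- male replicates 3 and 4, and none in the other 11. In whole glands, fewer cells of a type and less RNA per cell cannot be told apart.

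Ramp1 lies on mm10 chromosome 1 from 91179822 to 91225196 on the plus strand (GENCODE M21), and no other annotated gene overlaps it. The 250 bases before the RefSeq start of Ramp1 are shown because NR5A1, whose RNA was all but lost from PE-/- glands, binds the sequence CAAGGTCA. The windows of Ramp3 and Calcrl, whose groups were not separated in any comparison, are shown for comparison. Matches to the core GGTCA on either strand are in capitals (GRCm38.p6, each 5′ to 3′ on the strand of the gene).
Ramp1 (chr1:91179572-91179821, plus strand): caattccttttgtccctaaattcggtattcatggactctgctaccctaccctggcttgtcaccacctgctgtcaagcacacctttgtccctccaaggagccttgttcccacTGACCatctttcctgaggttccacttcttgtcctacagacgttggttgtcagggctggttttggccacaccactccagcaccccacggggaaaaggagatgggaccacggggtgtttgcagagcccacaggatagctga
Ramp3 (chr11:6658283-6658532, plus strand): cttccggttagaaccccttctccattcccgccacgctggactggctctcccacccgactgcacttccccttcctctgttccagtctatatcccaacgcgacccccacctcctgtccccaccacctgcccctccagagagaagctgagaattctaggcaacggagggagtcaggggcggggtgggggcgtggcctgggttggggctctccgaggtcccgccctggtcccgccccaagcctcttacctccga
Calcrl (chr2:84425267-84425516, minus strand): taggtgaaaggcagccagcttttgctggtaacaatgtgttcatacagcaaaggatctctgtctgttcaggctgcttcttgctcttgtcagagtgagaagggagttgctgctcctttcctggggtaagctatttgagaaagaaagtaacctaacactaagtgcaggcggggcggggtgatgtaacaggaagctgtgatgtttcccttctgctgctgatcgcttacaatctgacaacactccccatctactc

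RefSeq gave such windows for 6 of the 8 members. The window of Ramp1 held 1 match to GGTCA, read as TGACC on the plus strand from 139 to 135 bases before the start. The windows of Adm and Calca also held 1 each, and those of Ramp3, Calcrl and Calcr none. GGTCA, searched on both strands, was present in 35.2% of all 32851 windows. The longer AAGGTCA and CAAGGTCA, which contain it, were in 4.08% and 1.33% of windows and in none of a member. The cAMP response element TGACGTCA was in 1.55% of windows, again in none of a member. These counts describe letters in a short window and not binding.

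Ramp1, the partner that makes Calcrl a CGRP receptor, stood at one level in PE+/- males and at a lower one in the other 3 groups. The 4 PE+/- males had 51.2, 39.8, 52.0 and 42.5 CPM. The 4 PE-/- males had 7.03, 9.96, 9.32 and 8.71 CPM. All PE+/- males lay above all PE-/- males. The means were 46.4 ± 6.10 (SD, n = 4) and 8.75 ± 1.26 CPM (n = 4), a 5.30-fold difference, and the fitted log2 fold change was -2.41 (95% confidence interval -2.79 to -2.02). Without each male library in turn it ran from -2.47 to -2.32. Of all genes tested in males, 4.56% had groups that did not overlap, 2.02% with PE-/- below PE+/-.

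**Figure D1:**
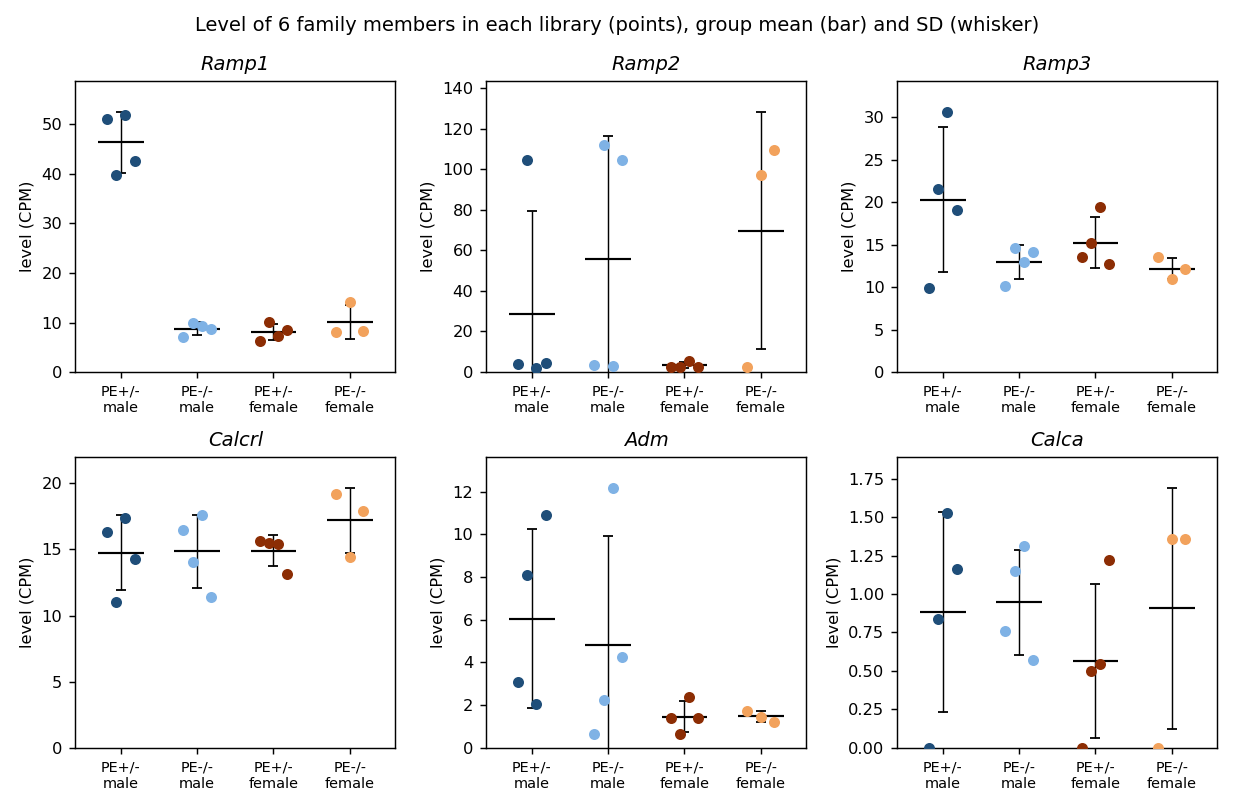
Level of 6 family members (CPM, linear axes from 0) in each library, with the mean and SD of each group; whiskers that would pass below 0 are cut there. Ramp1 is high in the 4 PE+/- males alone, Ramp2 takes 2 levels within groups, and Calcrl stays between 10.99 and 19.2 CPM in all 15 libraries.

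In females Ramp1 was tested, because it was chosen by its difference in males. Earlier results of these data were known at that choice, so the female libraries are not fully independent of it. The PE+/- females had 6.33, 10.01, 7.19 and 8.54 CPM, and the PE-/- females 8.03, 14.1 and 8.32 CPM. The groups overlapped. The log2 fold change was 0.34 (SE 0.27, 95% confidence interval -0.30 to 0.97), which did not pass the threshold (adjusted p = 0.624, edgeR quasi-likelihood test). The male value lies outside this interval. Since Ramp1 was chosen by that male value, this is no test of a difference between the sexes. Leaving out each female library in turn gave values from 0.01 (without PE-/- replicate 2) to 0.49. Among 18085 genes tested in females, 1.05% passed the threshold.

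Ordered by their means, the groups ran from PE+/- males (46.4 CPM) to PE-/- females (10.2 ± 3.45, n = 3), PE-/- males (8.75) and PE+/- females (8.02 ± 1.61, n = 4). The last 3 groups overlapped one another in every pairing, and PE+/- males overlapped none of them. Between PE+/- males and females, 9.75% of all genes tested had groups that did not overlap. Between the sexes, Ramp1 was 5.78-fold lower in PE+/- females than in PE+/- males (log2 -2.53, 95% confidence interval -2.96 to -2.10). In PE-/- glands the difference of females from males was 0.22 on the log2 scale (95% confidence interval -0.36 to 0.80). The change with genotype in females exceeded that in males by 2.75 on the log2 scale (95% confidence interval 2.09 to 3.40). These 3 values share the PE+/- or PE-/- males with the comparison that chose Ramp1, so their intervals are descriptions and not tests.

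**Figure D2:**
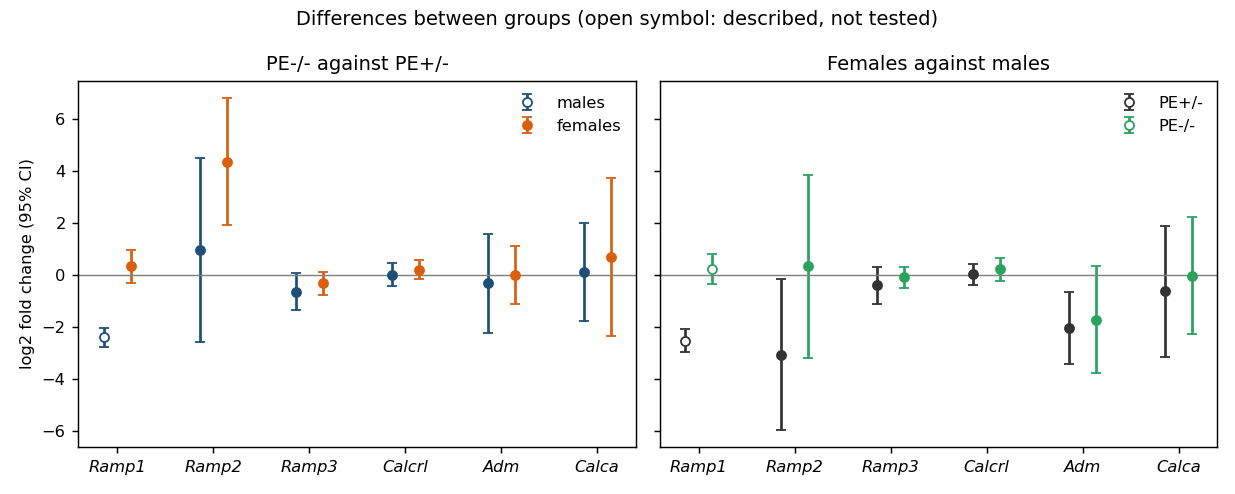
Fitted log2 fold changes of 6 members with 95% confidence intervals, for PE-/- against PE+/- in each sex (left) and females against males in each genotype (right); open symbols mark values described but not tested. The open symbols of Ramp1 show the difference by which it was chosen and those that share its libraries, and the intervals of Ramp2, Adm and Calca are wide.

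Of 6 gonadotrope markers (Nr5a1, Lhb, Fshb, Gnrhr, Cga and Nr0b1), all 6 had estimates below 0 with genotype in each sex. Called lower were 4 in males, where 0.132% of all genes were called in either direction. In females 4 were, where 1.05% of all genes were called. Their summed level was 9000 to 16893 CPM in PE+/- males and 1360 to 6818 in PE-/- males, against 5871 to 8761 in PE+/- females and 2265 to 6948 in PE-/- females. These sums were mostly Cga, which was not called. Its means in PE+/- and PE-/- were 8474 and 5221 CPM in males (log2 -0.70, edgeR adjusted p = 0.970). In females they were 6412 and 4971 CPM (log2 -0.37, edgeR adjusted p = 0.701). The 4 called in each sex, Nr5a1, Lhb, Gnrhr and Nr0b1, had log2 fold changes of -7.19 to -4.75 in males and -5.72 to -3.67 in females. The part of these markers in the difference of Ramp1 was not tested.

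Set beside Calcrl and Ramp3, each per kilobase of exons, Ramp1 stood apart in 1 group. Ramp2 is left out of these ratios because of its 2 levels. In the 5 libraries where it was high it had 29.4 to 33.9 CPM per kilobase, above both Ramp1 and Ramp3, so the ratios do not give the composition of all RAMPs. The ratio of Ramp1 to Calcrl was 4.81 to 5.86 in the PE+/- males and 0.654 to 1.58 in the other 11 libraries. Ramp1 made up 43.7% to 70.2% of the sum of Ramp1 and Ramp3 in PE+/- males. It made up 22.0% to 24.8% in PE-/- males, 14.4% to 23.4% in PE+/- females and 21.3% to 37.0% in PE-/- females. Ramp1 was above Ramp3 in 2 of the 4 PE+/- males and below it in every other library. RNA levels say nothing of the receptors assembled.

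The 5 genes with the pattern closest to that of Ramp1 were found by the root mean square difference of centred log2 CPM over the 15 libraries, among 16026 other genes. They were Unc13c (0.530), a vesicle priming factor, 1500009L16Rik (0.545), Fyb2 (0.591), an adaptor protein, Megf10 (0.592), an engulfment receptor, and Cemip (0.614), a hyaluronan-binding protein. The median over all genes was 1.17, and the next gene stood at 0.624, close to the fifth. All 5 were highest in PE+/- males, with no overlap with the other groups, which follows from their choice by likeness to Ramp1. Unc13c had 3.72 to 5.29 CPM in PE+/- males, 0.345 to 0.797 in PE-/- males, 1.04 to 1.55 in PE+/- females and 0.988 to 1.36 in PE-/- females. Its value in PE-/- male replicate 2 (0.345 CPM) lay under the floor of 12 counts, and those of the other PE-/- males lay near it. Cemip was under the floor in PE+/- female replicate 3 (0.545 CPM). Megf10 had 10.7 to 15.2 CPM in PE+/- males and at most 6.02 in the others. Leaving out 1 library at a time kept 3 to 5 of the 5 genes, and the count was 3 when the library left out was replicate 1 of the PE+/- males, replicate 3 of the PE-/- males, or replicate 1 or 4 of the PE+/- females.

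**Figure D3:**
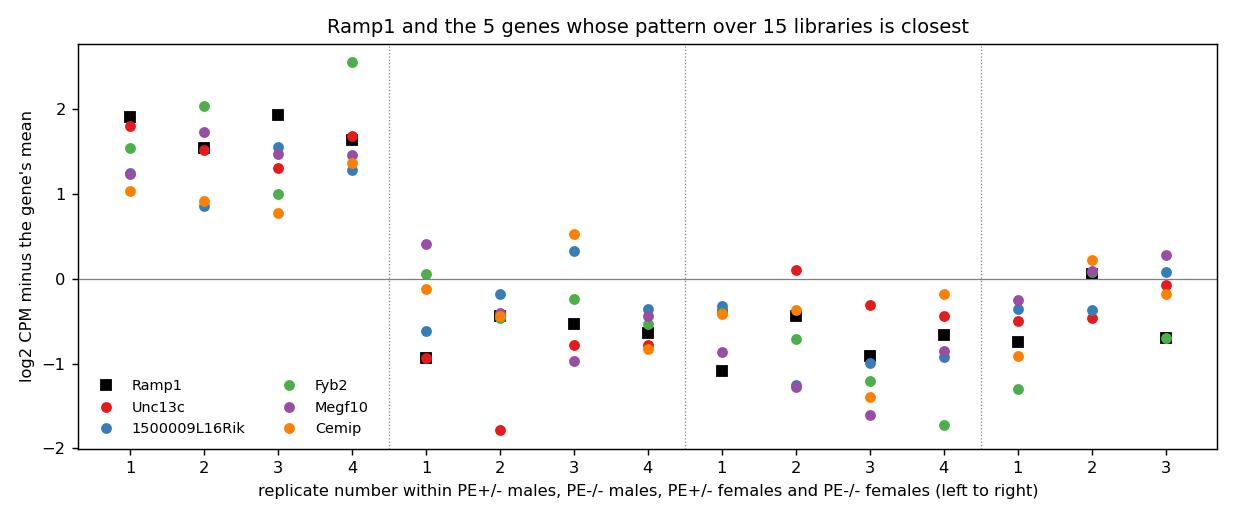
Log2 CPM minus the mean of each gene in the 15 libraries, for Ramp1 (squares) and the 5 genes closest to it (circles), with groups parted by dotted lines. All 6 genes stand at least 0.774 above their mean in the 4 PE+/- males and at most 0.524 above it in the other libraries, where most points lie below it. The 5 were chosen by likeness to Ramp1 over these libraries, so the shared pattern follows from the choice.

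Ramp2, the partner that makes Calcrl an adrenomedullin receptor and is known from endothelium, took 2 levels that cut across the groups. In 10 libraries it had 1.77 to 5.66 CPM, and in 5 it had 97.1 to 112 CPM, with none between. PE+/- males had 4.16, 104, 1.77 and 4.46 CPM, and PE-/- males 3.39, 112, 2.76 and 104 CPM. PE+/- females had 2.66, 2.55, 5.66 and 2.69 CPM, and PE-/- females 2.47, 97.1 and 109 CPM. Every group but the PE+/- females held libraries at both levels. The high libraries had 1835 to 3138 counts of Ramp2 and the low ones 29 to 104, so that all lay above the floor of 12 counts.

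The row of Ramp2 shared its assembled locus with Vps25, a gene of the endosomal sorting machinery whose annotated span on the same strand overlaps that of Ramp2. Ramp2 spans 101246028 to 101259546 on chromosome 11 and Vps25 101253707 to 101259549. Vps25 had 1.03 to 5.24 CPM in 13 libraries and 24.2 and 22.5 CPM in replicate 1 of the PE-/- females and of the PE-/- males, both of which were low in Ramp2. The sum of both genes still ran from 3.17 to 115 CPM. Within groups, Ramp2 ranged 59.0-fold in PE+/- males, 40.5-fold in PE-/- males, 44.2-fold in PE-/- females and 2.22-fold in PE+/- females. Of 16027 genes with a mean of at least 20 counts, 9.20% had a range over 20-fold in some group. These genes were chosen by their mean, so their lowest libraries may lie under the floor, whereas Ramp2 lay above it in every library. The share therefore does not show how common ranges like those of Ramp2 were. How reads of this locus were divided was not tested.

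No difference of Ramp2 passed the threshold. In females the log2 fold change with genotype was 4.35 (SE 1.05, 95% confidence interval 1.90 to 6.81, adjusted p = 0.102), and in males 0.96 (SE 1.55, interval -2.59 to 4.50, adjusted p = 0.987). The female value rested on the 2 high PE-/- libraries, while the other one, at 2.47 CPM, overlapped the PE+/- females. It passed with DESeq2 (adjusted p = 6.46e-05), with edgeR's likelihood ratio test (0.00125) and with rows summed per locus (3.46, 0.0277), and without PE-/- female replicate 1 (4.92, 0.0105). Between the sexes the log2 difference of females from males was -3.07 in PE+/- (adjusted p = 0.345), which was -0.03 without PE+/- male replicate 2, and 0.32 in PE-/- (adjusted p = 0.997). The difference between the genotype changes of the sexes was 3.40 (interval -1.06 to 7.87, adjusted p = 0.640), and 0.37 without PE+/- male replicate 2. That library also moved the male value, to 4.00 without it (adjusted p = 0.726).

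Ramp3, which also makes Calcrl an adrenomedullin receptor, did not differ beyond its spread in any comparison. PE+/- males had 9.94, 21.6, 30.6 and 19.1 CPM, and PE-/- males 10.2, 14.7, 12.9 and 14.1 CPM. PE+/- females had 13.6, 15.2, 19.5 and 12.8 CPM, and PE-/- females 13.5, 10.98 and 12.1 CPM. All groups overlapped, and PE+/- males spread most widely. The log2 fold change with genotype was -0.65 in males (interval -1.35 to 0.06, adjusted p = 0.848) and -0.33 in females (interval -0.78 to 0.12, adjusted p = 0.462). Females differed from males by -0.41 in PE+/- (adjusted p = 0.642) and -0.09 in PE-/- (adjusted p = 0.997). The interaction was 0.32 (interval -0.52 to 1.16, adjusted p = 0.872). An opposite-strand gene overlaps Ramp3, and whether the counting used strand is not stated, so its reads cannot be told apart from those of Ramp3.

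Calcrl, the receptor subunit shared by CGRP and adrenomedullin, stayed between 10.99 and 19.2 CPM in the 15 libraries. Its levels were 16.3, 10.99, 17.4 and 14.3 CPM in PE+/- males and 16.4, 14.1, 17.6 and 11.4 CPM in PE-/- males. They were 15.6, 15.5, 15.4 and 13.1 CPM in PE+/- females and 19.2, 14.4 and 17.9 CPM in PE-/- females. No pair of groups was separated. The log2 fold change with genotype was 0.01 in males (interval -0.44 to 0.46, adjusted p = 0.997) and 0.20 in females (interval -0.18 to 0.57, adjusted p = 0.627). Females differed from males by 0.02 in PE+/- (adjusted p = 0.983) and by 0.21 in PE-/- (adjusted p = 0.997), and the interaction was 0.19 (adjusted p = 0.891). The bound farthest from 0 among the 5 intervals was 0.74, in the interaction.

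Endothelial cells are a known source of Calcrl, and 0 of 11 tested endothelial markers were called with genotype by edgeR in males, where 0.132% of all genes were, or in females, where 1.05% were. In males 10 of the 11 estimates were below 0, with a median log2 fold change of -0.41, and in females 9 of 11 were, with a median of -0.32. Unadjusted p-values under 0.05 were found for 3 of them in males, 2 lower and 1 higher, beside 6.14% of all genes, and for 1 in females, lower, beside 16.1%. DESeq2 called 1 in males, the tight junction gene Cldn5 (log2 1.36 by edgeR, DESeq2 adjusted p = 0.0235), which was higher in PE-/-, and 0 in females. Over all genes DESeq2 called 228 in males and 1304 in females. The summed level of the endothelial markers was 126 to 409 CPM in PE+/- males, 125 to 151 in PE-/- males, 170 to 217 in PE+/- females and 148 to 174 in PE-/- females. The wide range in PE+/- males came with Plvap alone, which had 92.0 ± 129 CPM there (SD, n = 4) and 36.9 ± 4.82 in PE-/- males (n = 4). Vwf was at or under the floor in both PE+/- groups. The part of these markers in the levels of Calcrl was not tested.

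Calcr, the calcitonin receptor, had 0 counts in 14 libraries and 6 counts in PE-/- male replicate 2, which is under the floor, so it was not tested. A count of 0 allows a level of up to 0.397 to 0.924 CPM before TMM correction, depending on the library, and covers counting error only.

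Adm, which encodes adrenomedullin, was the only peptide gene of the set that rose clearly above the floor, and its high libraries were all male. PE+/- males had 3.10, 8.12, 2.07 and 10.9 CPM, and PE-/- males 0.657, 2.22, 12.2 and 4.27 CPM. PE+/- females had 1.41, 0.628, 2.40 and 1.40 CPM, and PE-/- females 1.73, 1.45 and 1.23 CPM. Levels of males and females overlapped within each genotype. Counts ran from 13 to 260, and an opposite-strand gene that overlaps Adm leaves part of them uncertain.

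The 4 libraries with the most Adm were the 4 that held oxytocin counts. They had 4.27 to 12.2 CPM of Adm and 15.7 to 57.8 CPM summed over the posterior lobe genes Avp, Oxt, Rax and Gfap. The other 11 libraries, 4 of them male, had 0.628 to 3.10 CPM of Adm and 0 to 2.58 CPM of the posterior lobe genes. Avp and Oxt were at 0 in all 11. This grouping was noticed after the values were seen, and the part of posterior lobe tissue in the level of Adm was not tested.

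**Figure D4:**
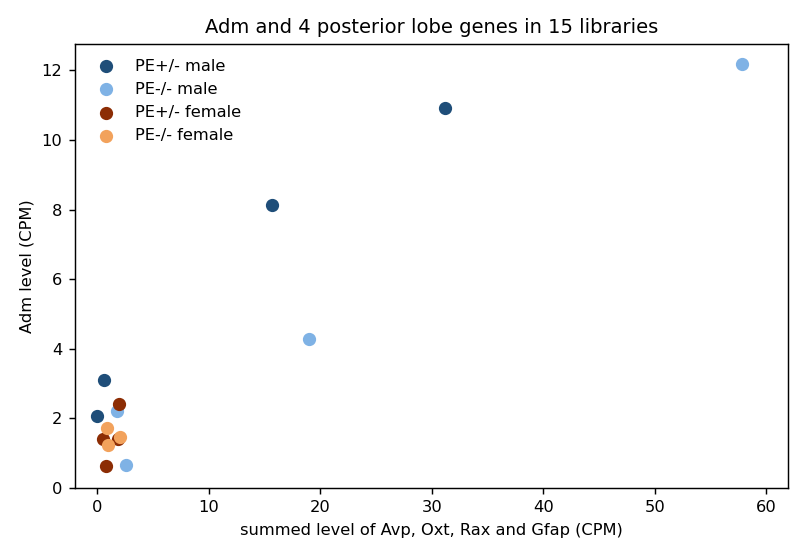
Adm level against the summed level of 4 posterior lobe genes (both CPM) in the 15 libraries, coloured by group. The 4 libraries at 15.7 CPM or more of posterior lobe genes, all male, have the most Adm, and the other 11 sit at the lower left.

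In PE+/- glands Adm was lower in females than in males by a log2 difference of -2.05 (SE 0.61, interval -3.44 to -0.66), which did not pass the threshold (adjusted p = 0.196) and passed with DESeq2 (0.0309) and the likelihood ratio test (0.0474). Of 17163 genes tested in that comparison, 0.67% passed. Without the 4 libraries that held oxytocin counts the difference was -0.84 (adjusted p = 0.686). In PE-/- glands it was -1.72 (interval -3.76 to 0.33, adjusted p = 0.997) and became 0.016 without those libraries. With genotype, Adm differed by -0.33 in males (interval -2.23 to 1.58, adjusted p = 0.988) and 0.01 in females (interval -1.11 to 1.13, adjusted p = 0.998). The interaction was 0.34 (adjusted p = 0.967).

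Calca, which encodes calcitonin and CGRP by alternative splicing, was detected near the floor. It had 0 to 25 counts in PE+/- males, 10 to 30 in PE-/- males, 0 to 20 in PE+/- females and 0 to 44 in PE-/- females, or at most 1.52 CPM. All groups overlapped, and no difference passed the threshold (adjusted p = 0.996 with genotype in males and 0.870 in females). The intervals were wide, from -1.78 to 1.99 in males and from -2.35 to 3.71 in females. Calcb, the gene of another form of CGRP, had 0 counts in all 15 libraries. The deposited values do not separate the calcitonin and CGRP forms of Calca.

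Per kilobase of exons, the order of the members differed between groups through Ramp1. In PE+/- males Ramp1 had 15.3 ± 2.02 and Ramp3 14.7 ± 6.16 CPM per kilobase (SD, n = 4), which overlapped, and Calcrl had 3.02 ± 0.577. In PE-/- males Ramp3 led with 9.40 ± 1.45 CPM per kilobase, followed by Calcrl with 3.04 ± 0.562 and Ramp1 with 2.90 ± 0.416. In PE+/- females the order was Ramp3 with 11.1 ± 2.17, Calcrl with 3.05 ± 0.246 and Ramp1 with 2.65 ± 0.533 CPM per kilobase. In PE-/- females it was Ramp3 with 8.84 ± 0.925, Calcrl with 3.52 ± 0.504 and Ramp1 with 3.36 ± 1.14 CPM per kilobase (n = 3). Calcrl and Ramp1 overlapped in all groups but the PE+/- males. Adm lay at 0.901 to 3.74 and Calca at 0.337 to 0.562 CPM per kilobase as group means, and Ramp2 could not be ranked because of its 2 levels.

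Over the set, 6 of the 8 members passed the filter on low counts. Ramp1 is counted in females alone, since its values elsewhere share libraries with the comparison that chose it. Of the other 5, 0 passed the threshold with genotype in males by edgeR and by DESeq2, where 0.132% of 17392 genes passed, and 0 had an unadjusted p under 0.05. In females 0 of 6 passed by edgeR, against 1.05% of all genes, with 1 at an unadjusted p under 0.05 and 1 by DESeq2, in each case Ramp2. Over all genes DESeq2 called 1304 in females. Between PE+/- sexes 0 of the 5 passed by edgeR, where 0.67% of genes passed, with 2 at an unadjusted p under 0.05 (Adm and Ramp2). DESeq2 called 1 (Adm), beside 852 over all genes, and gave Ramp2 no adjusted p. Between PE-/- sexes 0 of the 5 passed by edgeR and by DESeq2, where 0.0494% of 18217 genes passed, and 0 had an unadjusted p under 0.05. In the interaction 0 of the 5 passed by edgeR and by DESeq2, where 0.161% of 19286 genes did, and 0 had an unadjusted p under 0.05.

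Genes that act with the family were taken from 5 lists of 49 genes. The other ligands of the family were all but absent, with 0 of 2 tested (Iapp, which encodes amylin, and Adm2). No gene of the lists passed the threshold with genotype by edgeR, 0 of 38 tested in males and 0 of 37 in females. At an unadjusted p under 0.05 there were 3 in males, where 6.14% of all genes had one, and 9 in females, where 16.1% did. DESeq2 called 0 in males and 4 in females (Adcy2, Glp1r, Mme and Prkar2b). Over all genes it called 228 in males and 1304 in females.

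The estimates leaned down in males and up in females. In females 31 of 37 were above 0, with a median log2 fold change of 0.35, while the median of all genes was 0.00. In males 28 of 38 were below 0, with a median of -0.11 against 0.00 for all genes, and with library totals in place of TMM factors 22 of 38 were. Marker levels of other cell types were compared in the same females. Prl, the prolactin gene of lactotropes, was lower in PE-/- females, with 30123 ± 5984 CPM in PE+/- (SD, n = 4) and 5084 ± 579 in PE-/- (n = 3), a log2 fold change of -2.58 (edgeR adjusted p = 0.00698). Estimates were above 0 for 4 of 4 corticotrope and melanotrope markers, 2 of 2 somatotrope, 3 of 3 thyrotrope and 4 of 4 stem or folliculostellate markers, of which edgeR called none and DESeq2 called 2, Aldh1a2 and Cdh26. The summed level of the stem or folliculostellate markers was 31.7 to 44.7 CPM in PE+/- and 60.6 to 71.6 in PE-/- females, that of the mural markers 433 to 940 and 298 to 373, and that of the fibroblast markers 284 to 320 and 175 to 220. The mural sum was mostly Rgs5 (log2 -1.21, edgeR adjusted p = 0.09997) and the lower fibroblast sum came with Col1a2 (log2 -1.95, edgeR adjusted p = 0.0207), a collagen gene, while 3 of the 5 fibroblast estimates were above 0. The sums overlapped for corticotrope and melanotrope (25689 to 48225 and 45894 to 51811 CPM), somatotrope (59381 to 104861 and 86361 to 174579) and thyrotrope markers (308 to 488 and 444 to 473). Ghrhr and Crhr1 stand in both a marker list and a pathway list. The part of these cell types in the lean of the pathway genes was not tested. The difference between the sexes was tested gene by gene as an interaction, in which 0 of 39 passed with edgeR and 7 had an unadjusted p under 0.05 (10.1% of all genes did). DESeq2 called 3 in the interaction, and 370 over all genes.

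By role, the list of Gs, adenylyl cyclase and protein kinase A genes had 14 of 17 estimates above 0 in females and 13 of 17 below 0 in males. The genes named from the lists were chosen after their values were seen, since none passed the threshold. Adcy2, an adenylyl cyclase, had 3.83 ± 1.10 CPM in PE+/- females (SD, n = 4) and 8.23 ± 0.819 in PE-/- females (n = 3), a log2 difference of 1.09 (adjusted p = 0.104). Prkar2b, a regulatory subunit of protein kinase A, had 25.6 ± 4.61 and 41.4 ± 1.14 CPM (log2 0.69, adjusted p = 0.108). Adcy5, another adenylyl cyclase, went the other way, with 57.7 ± 12.8 and 39.5 ± 5.11 CPM (log2 -0.55, unadjusted p = 0.0267, adjusted p = 0.235). The groups of these 3 genes did not overlap in females, as for 18.6% of all genes.

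The list of peptide amidation, processing and clearance, which holds the enzymes that mature and degrade such peptides, had 7 of 7 estimates above 0 in females (median 0.52) and 6 of 7 below 0 in males (median -0.09). Mme, the peptidase neprilysin, had 8.98 ± 4.63 CPM in PE+/- females and 27.6 ± 7.14 in PE-/- females (log2 1.61, SE 0.38, adjusted p = 0.0977). In males Mme had 19.2 ± 6.26 and 10.4 ± 5.83 CPM (log2 -0.89, adjusted p = 0.815), and its interaction was 2.51 (adjusted p = 0.118, and 0.00526 with DESeq2). Pcsk1, a prohormone convertase, had 347 ± 62.8 CPM in PE+/- males and 198 ± 52.8 in PE-/- males (log2 -0.81, adjusted p = 0.394).

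**Figure D5:**
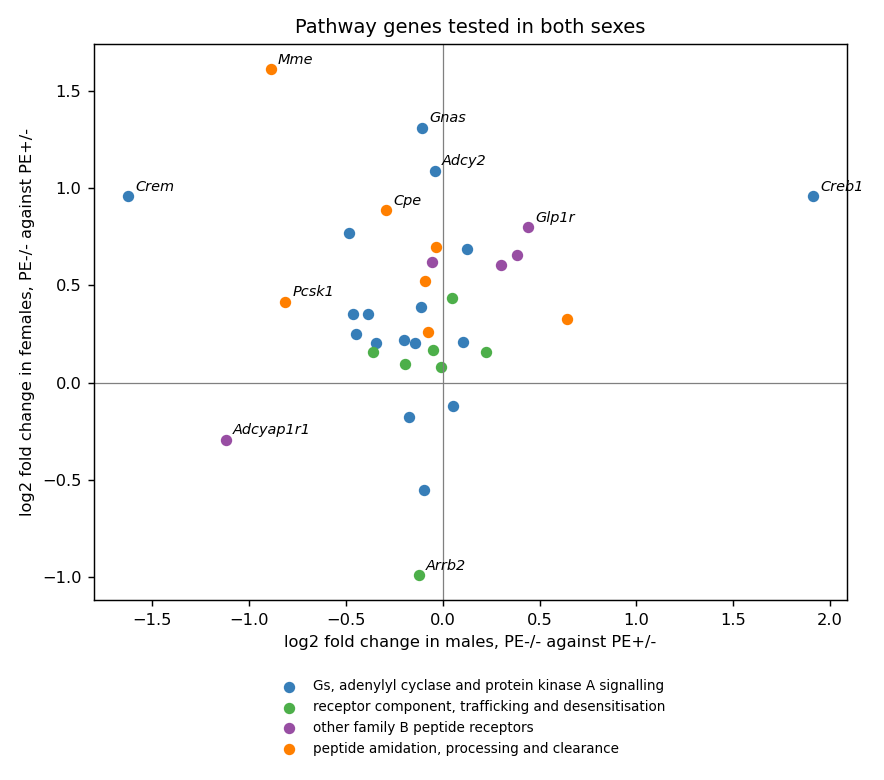
Log2 fold change of PE-/- against PE+/- in males (horizontal) and females (vertical) for the 36 pathway genes tested in both sexes, coloured by list. Most points lie above the horizontal line at 0, and none passed the threshold in either sex by edgeR.

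Of the other family B receptors, which share their fold with Calcrl and Calcr, 7 of 13 were tested in males and 5 in females. Adcyap1r1, the receptor of pituitary adenylyl cyclase-activating peptide, had 28.2 ± 5.85 CPM in PE+/- males and 13.01 ± 6.49 in PE-/- males (log2 -1.12, interval -1.91 to -0.33, adjusted p = 0.554). These groups did not overlap, as for 4.56% of all genes tested in males, 2.02% with PE-/- below PE+/-. In females it had 13.7 ± 10.95 and 11.2 ± 4.37 CPM (log2 -0.29, adjusted p = 0.870). Glp1r, the receptor of glucagon-like peptide, had 7.37 ± 1.51 CPM in PE+/- females and 12.9 ± 1.15 in PE-/- females (log2 0.80, adjusted p = 0.120). The list of the receptor component, trafficking and desensitisation, with Crcp, the CGRP receptor component, had estimates from -0.36 to 0.22 in males and from -0.99 to 0.43 in females.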

How the data were processed

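Total RNA of whole pituitary glands was made into libraries with a low-input kit and sequenced as paired reads. The authors' methods name cutadapt for trimming, STAR for mapping to mm10 and featureCounts for counting. The deposited table gave estimated counts per gene as whole numbers, unnormalized, in 1 column per library. Its row names point to an assembled annotation, of which the methods say nothing. As 5 was 1.52 times and 9 was 1.16 times as frequent as the values around them, a fragment was taken as about 4 counts. Columns that matched no sample numbered 0.

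Tests were run with edgeR 4.0.16 (R 4.3.3). Each comparison used its own groups' libraries, filterByExpr, TMM factors and the two-sided quasi-likelihood F test, adjusted by the Benjamini-Hochberg method over all genes tested at 0.05. Log CPM had a prior count of 2. The members, lists and tests were chosen with earlier results of these data known. By rule the text named the 8 members, Nr5a1, the 5 genes closest to Ramp1, and listed genes past the threshold. Lists of pathway genes and cell markers are described by counts. Alternatives covered the DESeq2 test (1.42.0), its size factors, unscaled library totals, 2 other low-count filters (none, or 1 CPM), the likelihood ratio test, one model of all 15 libraries, sums over each locus, counts divided by 4, a replicate block, and each library left out. Leaving out the libraries with oxytocin counts was added after the values were seen. Scripts were tested on simulated data.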

Additional observations from a re-analysis of the deposited data

Results flagged for a closer look

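Dixon's test at the 95% level was applied to each group of 4 libraries of each member with any spread, 19 groups in all. About 1 in 20 groups is flagged by chance if values are normally distributed, which does not hold for Ramp2 with its 2 levels or for groups with mostly 0 counts. It flagged 4. Ramp2 was highest in PE+/- male replicate 2, at 104 CPM against 4.46 CPM in the next library. Ramp2 in PE+/- females was highest in replicate 3, at 5.66 CPM against 2.69 CPM in the next. Calcrl in PE+/- females was lowest in replicate 4, at 13.1 CPM against 15.4 CPM in the next. Calcr had 0.230 CPM in PE-/- male replicate 2, from 6 counts, and 0 in the other libraries of that group, a pattern that the test always flags.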

How the results depend on the processing

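Members past the threshold are counted here without Ramp1 wherever male libraries enter, since its values there are described only. That number in males was 0 by edgeR and by DESeq2. With the replicate block, and without the 4 libraries that held oxytocin counts, 0 of all genes passed in males. The number in females was 0 and became 1, Ramp2, with DESeq2, the likelihood ratio test or rows summed per locus, and ranged from 0 to 1 with 1 library left out. Between PE+/- sexes the number was 0 and became 1, Adm, under DESeq2 and the likelihood ratio test. In the interaction it was 0 by edgeR and by DESeq2. Pathway genes past the threshold in females numbered 4 with DESeq2, 2 with the likelihood ratio test and 1 in one fit on all 15 libraries, and 0 to 1 with 1 library left out. Over all genes in females DESeq2 called 1304, the likelihood ratio test 710 and the fit on all 15 libraries 714. The cause was not tested in these cases.

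Directions changed only for values near 0 or with wide intervals. Without the oxytocin libraries the log2 difference of females from males was 0.19 for Ramp2 and -0.18 for Calcrl in PE+/- and 0.016 for Adm in PE-/-, and that of Calcrl with genotype in males was -0.15. Adm in females was -0.0026 with the filter of 1 CPM, and the interaction of Calca was -0.33 with the replicate block.

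With 1 library left out, the difference with genotype in males ranged from -0.11 to 0.12 for Calcrl, from -1.35 to 0.12 for Adm and from -0.30 to 0.50 for Calca, and in females from -0.25 to 0.35 for Adm. The difference of females from males in PE-/- ranged from -0.10 to 0.36 for Ramp1, from -0.15 to 0.92 for Ramp2 and from -0.45 to 0.52 for Calca, and in PE+/- from -0.10 to 0.11 for Calcrl. The interaction of Adm ranged from -0.11 to 1.38.

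Deviations of same-numbered samples were correlated at -0.08 to 0.13, and replicate numbers were not taken as pairs. The same number gave the higher correlation for replicates 1 and 2 with genotype in females (0.132 and 0.087, against at most -0.017 and -0.039 with other numbers). It also did for replicate 2 between PE-/- sexes (0.107 against -0.014), and in the remaining cases another number was higher. Replicate 2 was the deepest library of every group. The labels do not say whether the number marks a batch. With the replicate block the log2 fold change of Ramp1 in females was 0.34 (adjusted p = 0.454), and the block moved the genes past the threshold from 23 to 0 in males and from 189 to 1 in females. Depth limited Calca, Calcr and Calcb, which lay near or under the floor of 12 counts.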
